A study of Mus musculus with 6 samples.

Results

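Open chromatin far from genes was examined in murine leukemia stem cells (LSCs) of the MLL-AF9 model of acute myeloid leukemia (AML). Of the 112652 regions formed by merging the peaks of 6 ATAC-seq lists on chromosomes 1 to 19 and X, 13802 (12.3%) were distal regions. A distal region is one whose midpoint was more than 100 kb from every start of a protein-coding gene in the GENCODE M21 basic annotation (GRCm38, mm10) and more than 1 kb from the start of any other gene. The regions were chosen by position alone, with no measured value. A further 732 regions over 100 kb from a protein-coding start were within 1 kb of another gene start and were left out. In ATAC-seq the Tn5 transposase cuts accessible DNA and tags it for sequencing, and a peak is a stretch where reads pile up above the background. It was done on 3 control samples and 3 samples treated for 24 h with mycophenolate mofetil (MMF), a prodrug that blocks inosine monophosphate dehydrogenase, the enzyme that commits purines to guanine nucleotides. All 6 samples were L-GMP cells, sorted leukemic cells with the surface markers of granulocyte-macrophage progenitors, labelled AML LSCs of genotype WT and cultured with IL3 and 20% FBS. The labels do not say what the control cells received or whether the samples were separate cultures or animals, so every p below measures the spread between these samples, which may be technical. The sources give more than one dose and time for the treatment, so no dose is printed.

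On these chromosomes the control lists had 58403 to 63802 peaks, and the MMF lists 80774 to 86437. Depth is known only through the background used by the peak caller, the reads expected by chance over 150 bp, which was 0.620 to 0.729 in control and 0.676 to 0.909 in MMF lists. Of 16 progenitor genes, 9 had a promoter peak in all 6 lists, among them Kit, Cebpa, Spi1, Flt3 and Meis1, whereas Mpo and Prtn3 had none in any list. None of 5 T cell genes had a promoter peak. Of 5 B cell genes, 4 had none and Cd79b had one in 2 MMF lists. Of 6 erythroid genes 1 (Klf1) had one in all 6 lists and 2 (Hbb-bs and Alas2) in none, of 4 megakaryocyte genes 2 (Pf4 and Itga2b) had one in all, and of 4 endothelial or stromal genes 2 (Col1a1 and Pecam1) had one in all and 2 (Cdh5 and Pdgfrb) in none. With a gene counted as rank 0 in a list where it had no peak, the progenitor list's median promoter rank was 20.3 to 29.2 in control lists. In MMF lists it was 46.3 to 51.8. This median moves with the number of genes that had a peak as well as with their ranks. The part of a shift in cell state in the results below was not tested.

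Enhancers are stretches of DNA that bind transcription factors and raise the activity of a promoter through looping of the chromatin. They can act over long distances and skip the nearest gene, so the nearest start named below is a landmark and the target of a distal region was not measured. In myeloid progenitors many enhancers carry sites for PU.1, RUNX1 and the C/EBP proteins, the last of which drive granulocyte and macrophage maturation, while CTCF binds insulators and loop anchors. The distal regions had 2642 different nearest genes at a median distance of 170050 bp. The farthest was 2480300 bp from a protein-coding start, 1141 regions were over 500 kb away and 297 over 1 Mb. Of all distal regions, 7496 (54.3%) were in no annotated gene, 4709 (34.1%) were inside a protein-coding gene far from its start and 1597 (11.6%) were inside a noncoding gene only. In 186 the midpoint was in a protein-coding exon. Chromosome 13 had the most distal regions per length (9.26 per Mb) and chromosome X the fewest (1.86 per Mb).

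Sequences of 7 distal regions are given as examples with matches to motifs searched below, and not as typical regions. Each is 200 bases of GRCm38 centred on the summit of the region's best-ranked peak, 5′ to 3′ on the plus strand, in lower case with matches to the named consensus in capitals. The first 2 are regions with a peak in all MMF lists and no control list, near Myh15 (chr16:49330833-49331032, C/EBP and AP-1 in capitals) and Stard3nl (chr13:19195541-19195740, C/EBP and E-box). The next had a peak in all lists and a higher rank with MMF, near Egln3 (chr12:54369263-54369462, C/EBP and AP-1). Then come 3 strong regions of all lists, near Zeb2 (chr2:45279572-45279771, C/EBP and RUNX), Mef2c (chr13:83074314-83074513, C/EBP and RUNX) and Cxcr4 (chr1:128712912-128713111, PU.1 and KLF). The last had a peak in control lists only, near Gfra1 (chr19:58202739-58202938, PU.1 and the ETS-IRF composite, which overlap).
Myh15: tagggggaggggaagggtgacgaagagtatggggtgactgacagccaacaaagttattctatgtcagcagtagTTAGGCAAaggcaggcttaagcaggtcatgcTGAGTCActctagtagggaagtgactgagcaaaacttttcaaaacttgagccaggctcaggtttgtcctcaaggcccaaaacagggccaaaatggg
Stard3nl: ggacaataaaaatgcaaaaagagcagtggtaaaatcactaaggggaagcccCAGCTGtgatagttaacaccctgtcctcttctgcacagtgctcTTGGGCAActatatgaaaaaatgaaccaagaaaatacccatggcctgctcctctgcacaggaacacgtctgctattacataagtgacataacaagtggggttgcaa
Egln3: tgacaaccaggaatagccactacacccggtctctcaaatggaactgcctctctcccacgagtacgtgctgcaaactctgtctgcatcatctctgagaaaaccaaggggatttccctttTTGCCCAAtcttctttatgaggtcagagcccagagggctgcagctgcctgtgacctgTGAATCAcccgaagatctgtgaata
Zeb2: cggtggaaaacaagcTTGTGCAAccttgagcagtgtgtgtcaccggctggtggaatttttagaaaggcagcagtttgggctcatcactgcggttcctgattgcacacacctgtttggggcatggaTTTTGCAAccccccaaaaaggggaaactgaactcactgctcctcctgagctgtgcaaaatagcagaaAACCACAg
Mef2c: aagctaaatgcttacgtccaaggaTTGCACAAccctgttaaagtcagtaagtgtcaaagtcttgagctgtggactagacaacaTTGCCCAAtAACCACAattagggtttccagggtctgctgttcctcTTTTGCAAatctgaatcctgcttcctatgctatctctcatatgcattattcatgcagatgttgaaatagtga
Cxcr4: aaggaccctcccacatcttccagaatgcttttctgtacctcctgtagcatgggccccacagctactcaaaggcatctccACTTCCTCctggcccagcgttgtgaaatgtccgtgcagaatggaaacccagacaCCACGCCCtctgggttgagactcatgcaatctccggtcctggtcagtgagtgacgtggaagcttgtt
Gfra1: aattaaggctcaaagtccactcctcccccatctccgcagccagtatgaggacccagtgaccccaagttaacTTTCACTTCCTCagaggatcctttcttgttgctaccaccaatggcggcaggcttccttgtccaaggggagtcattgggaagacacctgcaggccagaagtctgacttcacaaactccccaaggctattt

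Distal regions made up a larger share of the peaks of MMF-treated LSCs. The control lists had a peak at 6168, 5835 and 5381 distal regions and the MMF lists at 9579, 9682 and 8978. The mean rose 1.62-fold, from 5795 ± 395 to 9413 ± 380 (SD, n = 3 each), against 1.35-fold for all other regions (two-sided exact permutation test, p = 0.1, which is as low as 3 lists against 3 can reach). The distal share of a list's peaks was 9.89%, 9.63% and 9.43% in control and 11.27%, 11.47% and 11.35% in MMF lists, so that the groups did not overlap and the means differed by 1.71 percentage points (exact permutation p = 0.1). The difference was smaller at equal list length. With every list reduced to its 58403 peaks of lowest p, the share was 9.49%, 9.41% and 9.43% in control and 9.90%, 9.78% and 9.93% in MMF lists, a difference of 0.425 points (exact permutation p = 0.1), again without overlap. Distal peaks also took a larger part of the peaks away from promoters. Of the peaks that were distal or were 5 to 100 kb from a start outside coding genes, 26.0% ± 0.332 were distal in control and 28.9% ± 0.187 in MMF lists, and 25.6% ± 0.126 and 26.6% ± 0.138 at equal list length (SD, n = 3 each, exact permutation p = 0.1 for both).

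The change in share grew with distance between 5 and 500 kb, in classes that also count the 732 regions left out above. As deposited, the share of peaks within 1 kb of a protein-coding start was lower in MMF lists (log2 ratio of the mean shares -0.33), while the log2 ratio was 0.11 at 50 to 100 kb, 0.19 at 100 to 200 kb and 0.29 at 200 to 500 kb. At equal list length it was 0.02, 0.04 and 0.09 in these last 3 classes, without overlap between the groups in any of them (exact permutation p = 0.1 each), -0.08 within 1 kb and 0.12 at 1 to 5 kb, which was above every distal class. Beyond 500 kb it was 0.20 as deposited and -0.02 at equal list length, where the groups overlapped (exact permutation p = 0.5).

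**Figure D1:**
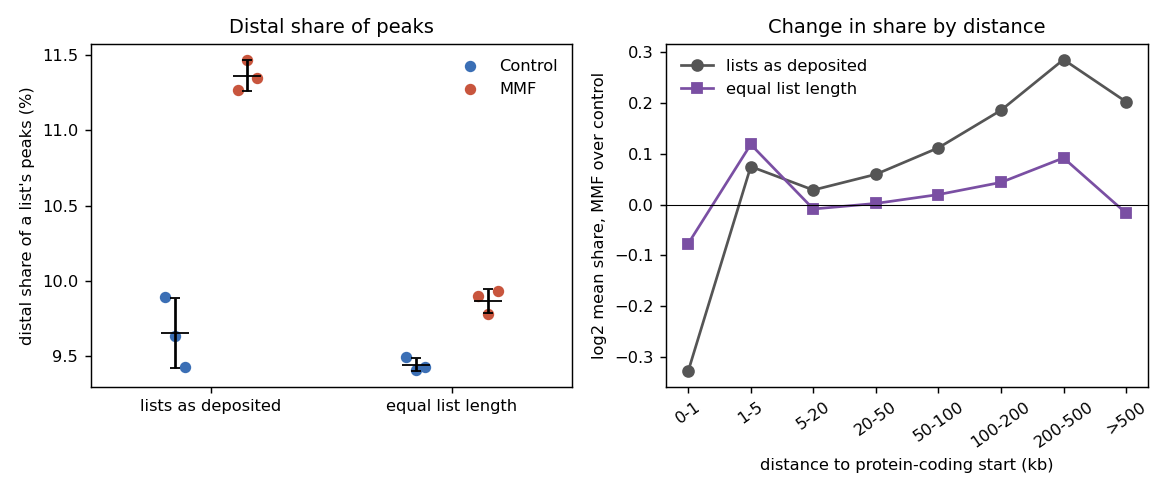
Left, the share of each list's peaks at distal regions (%), as deposited and at equal list length (58403 peaks), with a point per list and black bars for the mean and SD (n = 3). Right, the log2 ratio of the mean shares, MMF over control, in classes of distance to a protein-coding start (kb). The MMF points are above the control points in both settings, by 1.71 and 0.425 percentage points.

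Most distal regions that differed in presence were found with MMF only. A peak in all 6 lists was found at 3542 distal regions (25.7%), against 36.5% of all regions. A peak in all 3 MMF lists and no control list (gained) was found at 1157 distal regions, which is 8.38% of them, against 6.01% of all regions. The opposite pattern (lost) was found at 28, which is 0.203%, against 0.182% of all regions. A region without a peak is one where no peak was called, and its reads are not known. At equal list length 9456 distal regions were left, with 284 gained (3%, against 2.36% of all regions) and 128 lost (1.35%, against 1.39%). In that setting 0.514% of regions within 1 kb of a protein-coding start were gained. In the classes from 1 to 100 kb the share was 2.47% to 3.83%, and the highest, at 1 to 5 kb, was above that of distal regions. Gained distal regions were weak peaks. The mean number of reads over the summit in MMF lists had a median of 10 over the 1157 regions and a range of 5.33 to 30.3, and 22 of them had 20 or more. Leaving out MMF 3 raised the gained count to 1745 (13.5%, against 9.84% of all regions). Leaving out any one list raised the lost count to between 44 and 77 (0.341% to 0.567%, against 0.326% to 0.527% of all regions).

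**Figure D2:**
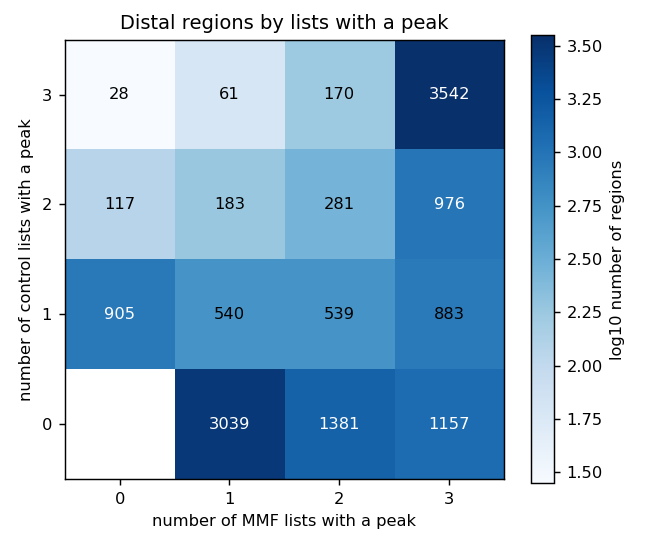
Number of distal regions by how many of the 3 control lists (y axis) and 3 MMF lists (x axis) hold a peak. The colour gives the log10 number. The lower right square holds the 1157 gained and the upper left the 28 lost regions.

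The 5 gained regions of highest mean rank had between 14 and 31 reads over the summit in each MMF list. Ranks here are percentile ranks of fold enrichment among the peaks of a list, with 100 the highest. The gained region of highest rank (chr13:107873158-107873699) was in the noncoding part of the annotation named Zswim6, 171017 bp from the start of Smim15, and ranked 87.6, 72.6 and 91.1 in the MMF lists. The region 273517 bp from Myh15, a myosin heavy chain gene (chr16:49330649-49331357), ranked 78.8, 77.4 and 85.2. The region 200136 bp from Stard3nl (chr13:19195378-19195818) ranked 80.9, 85.9 and 66.5. These 3 regions were thus above the middle of every MMF list while no peak was called there in control LSCs. The other 2 were in an intron of Ptprg, which encodes a receptor tyrosine phosphatase, and in an intron of Vps13b, 231896 bp from Cox6c, with ranks of 75.1 to 78.8. All 5 were also gained at equal list length. Around their summits, the regions nearest Smim15, Ptprg and Cox6c had no match to any of the 13 motifs searched below.

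The 5 lost regions of highest rank were weaker. The first (chrX:11845542-11845944), 234810 bp from Bcor, the gene of a BCL6 corepressor, ranked 46.4, 52.9 and 34 in the control lists. The second (chr19:58202704-58202963), 251632 bp from Gfra1, a receptor gene for the neurotrophic factor GDNF, ranked 61.6, 3.86 and 49.6, with 13, 5 and 10 reads over the summit. The remaining 3 were 394502 bp from Zfp462, 110793 bp from Lep, the leptin gene, and among the immunoglobulin heavy chain variable genes, 582747 bp from Zfp386, with ranks of 10.3 to 55.3. Of these 5, the regions near Bcor, Zfp462 and Zfp386 were also lost at equal list length.

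At the 3542 distal regions with a peak in all lists, the level was higher with MMF. The median number of summit reads per unit of background was 22.0, 21.7 and 22.6 in control and 30.2, 31.2 and 29.6 in MMF lists (exact permutation p = 0.1). At the other regions of all lists the medians were 31.9 ± 0.350 and 39.7 ± 1.33 (SD, n = 3 each). The log2 ratio of the distal median to that of the other regions rose from -0.53 ± 0.02 to -0.39 ± 0.01, and its ratio to the median of regions 5 to 100 kb away outside coding genes from -0.18 ± 0.01 to -0.09 ± 0.03 (SD, n = 3 each, exact permutation p = 0.1 for both, no overlap). The gap between distal and other open regions was therefore smaller in every MMF list than in any control list. The median rank of the shared distal regions was 61.4 ± 1.94 in control and 75 ± 1.48 in MMF lists. For the other shared regions it was 66.6 ± 1.41 and 74.2 ± 0.955, and for those 5 to 100 kb away 62.0 ± 1.60 and 72.1 ± 1.29. These ranks are among all peaks of a list, and the part of the longer MMF lists in them was not tested. Over all distal peaks of a list, shared or not, the median was 14.8 ± 1.23 summit reads per background in control and 15.7 ± 0.454 in MMF lists, and the groups overlapped (exact permutation p = 0.3). At equal list length it was 16.2 ± 0.280 and 23.1 ± 0.954 at distal peaks, and 23.6 ± 0.559 and 31.5 ± 0.967 at all other peaks (exact permutation p = 0.1 for both). This setting drops more weak peaks from the longer MMF lists, and its part in these rises was not tested.

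Single shared regions were compared with limma on normal scores of the ranks, taken among the 41125 regions with a peak in all lists, so that a difference is relative to the other shared regions. Of the 3542 distal regions tested, 112 rose with MMF past a limma adjusted p of 0.05 (Benjamini-Hochberg), which is 3.16%, against 1.44% of all regions tested. Lower were 18, which is 0.508%, against 0.421% of all. The median difference was 0.16 score units at distal regions and -0.07 at all regions. Taking ranks among the shared regions was decided after the data were seen. With ranks among all peaks of a list, as the comparison was first laid out, limma called 358 distal regions higher (10.1%, against 5.84% of all) and 7 lower (0.198%, against 0.185%), and the median over all regions moved to 0.17 and over distal regions to 0.37. At equal list length it called 160 higher of 2940 (5.44%, against 2.68%) and 19 lower (0.646%, against 1.07%). On summit reads per background limma called 1008 higher (28.5%, against 18.6%) and 30 lower (0.847%, against 0.968%), and with each list centred on its median 414 higher (11.7%, against 6.9%) and 234 lower (6.61%, against 13.9%). The calls on ranks rest on all 6 lists. Without any one of them limma called 0 distal regions in either direction, with 566 to 721 higher and 198 to 233 lower at an unadjusted p under 0.05.

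The increases described singly are 3 of the 5 largest. A region 165629 bp from Egln3, a prolyl hydroxylase gene of oxygen sensing (chr12:54369238-54369740), had 6 reads over the summit in each control list and 31, 25 and 21 in the MMF lists, and its rank went from 10.3, 11.1 and 12.5 to 93.2, 90.4 and 85.9. The difference was 2.67 ± 0.22 score units (SE, limma adjusted p = 0.0188). An intronic region of Rsrc1, a gene of RNA splicing (chr3:67144932-67145324), had 9, 7 and 8 reads in control and 33, 37 and 31 in MMF lists, a difference of 2.53 ± 0.24 (SE, limma adjusted p = 0.0219). An intronic region of Prim2, which encodes a DNA primase subunit (chr1:33502877-33503322), had 7, 6 and 6 reads in control and 35, 30 and 22 in MMF lists, a difference of 2.42 ± 0.22 (SE, limma adjusted p = 0.0218). In these 3 regions the lowest MMF rank was far above the highest control rank. Around the summit, the Egln3 region matched C/EBP, the Rsrc1 region KLF and MEIS but not C/EBP, and the Prim2 region none of the motifs searched below. Of the 112 higher regions, which had 106 different nearest genes, 27 were inside a coding gene and 4 were at least 50% repeat.

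The distal region with the largest decrease was 252504 bp from Chst7 (chrX:19806981-19807130), with 13, 11 and 13 reads over the summit in control and 5, 7 and 7 in MMF lists. The difference was -2.01 ± 0.35 (SE, limma adjusted p = 0.0393), and 50% of the region was annotated repeat. The regions 426670 bp from Bmp2, a growth factor gene, and 720821 bp from Ghitm were 77.2% and 85.5% repeat, with differences of -1.81 ± 0.27 and -1.79 ± 0.29. A region in the noncoding gene 2610307P16Rik, 255304 bp from Gm11361 (chr13:28512517-28513147) had 19, 18 and 18 reads in control and 11, 6 and 9 in MMF lists. In an exon of Akap13, the gene of a kinase anchor protein (chr7:75586100-75586551), reads went from 28, 34 and 32 to 23, 19 and 21, a difference of -1.73 ± 0.25 (SE, limma adjusted p = 0.0308). Of the 18 lower regions, 7 were at least 50% repeat, against 9.74% of the 3542 tested.

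**Figure D3:**
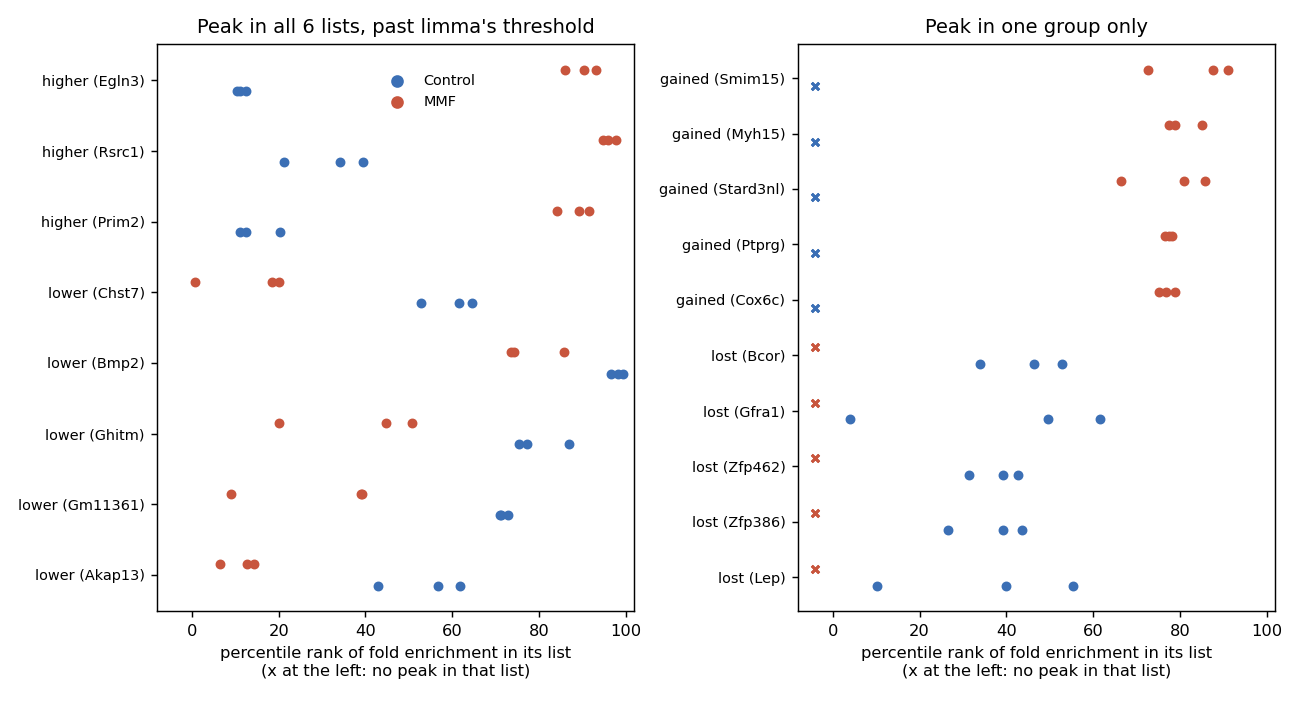
Percentile rank of fold enrichment (x axis) in each list at 3 of the 5 most increased and the 5 most decreased shared distal regions (left) and at the top-ranked 5 gained and 5 lost regions (right), named by the nearest protein-coding start. A point is a list and a cross at the left marks a list without a peak. In the left panel no MMF point falls among the control points of the same region.

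The C/EBP consensus was more frequent and the KLF and CTCF consensus less frequent among the distal peaks of every MMF list than of any control list. Both strands of the 200 bp around each summit were searched for 13 consensus motifs. C/EBP (TTGCNNAA) was found in 18.6%, 18.2% and 18.8% of the distal peaks of the control lists and 21.4%, 21.3% and 21.2% of those of the MMF lists. PU.1 (GAGGAAGT), the site of the master regulator of myeloid and B cells, was in 9.89% ± 0.291 and 10.6% ± 0.203 (SD, n = 3 each). KLF (CCNCNCCC) went from 18.8% ± 0.177 to 17.0% ± 0.208, CTCF from 4.87% ± 0.0967 to 4.05% ± 0.219, E-box (CAGCTG) from 13.0% ± 0.555 to 11.6% ± 0.158 and NF-Y (CCAATNAG) from 3.26% ± 0.0826 to 2.88% ± 0.176. For each of these motifs the groups did not overlap (exact permutation p = 0.1, adjusted over 13 motifs 0.186), and the direction was the same at equal list length and with a 500 bp window, where the groups overlapped for NF-Y (a difference of -0.10 points, exact permutation p = 0.5). As deposited, all other peaks moved the same way for C/EBP (12.8% to 15.1%), PU.1 (7.37% to 8.18%), KLF (31.3% to 27.6%) and CTCF (7.20% to 6.11%). They also did so for E-box (13.6% to 12.9%) and NF-Y (3.93% to 3.64%), so these differences are not particular to distal peaks. At equal list length NF-Y differed by -0.558 points at distal peaks and by 0.0379 points at other peaks. With 3 lists a group no motif could pass 0.05. AP-1 (TGANTCA) differed by -1.14 points between MMF and control lists as deposited, without overlap, and by 0.392 points at equal list length, with overlap. RUNX (AACCACA) differed by -0.35 points as deposited, with overlap, and by 0.588 points at equal list length, without. The GATA site, written AGATAA here, and ETS (CCGGAAGT), the ETS-IRF composite, MEIS (TGACAG) and HOX-PBX (TGATTNAT) differed by -0.20 to 0.105 points, with overlap. PU.1 and the ETS-IRF composite can share bases, as in the Gfra1 sequence.

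**Figure D4:**
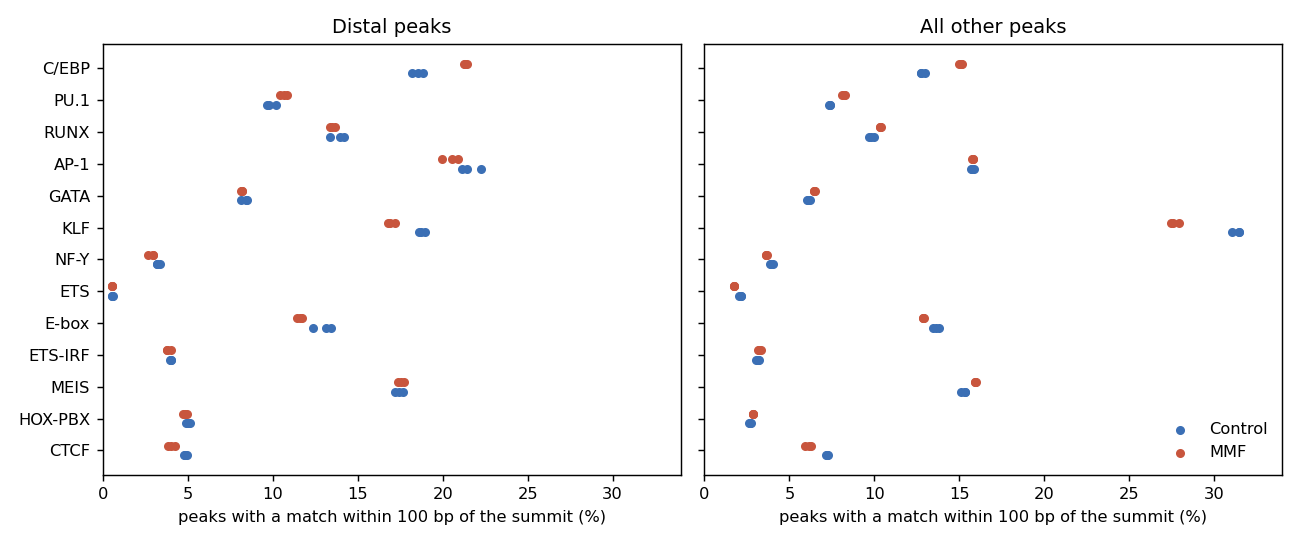
Share of peaks (%, x axis) with a match to each of 13 consensus motifs within 100 bp of the summit, for distal peaks (left) and all other peaks (right), with a point per list. C/EBP is to the right and KLF and CTCF to the left in MMF lists in both panels.

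The C/EBP consensus was frequent among gained distal regions. It was in 28% of the 1157 gained, 20.8% of the 3542 shared, 19.6% of all 13802 distal regions and 23.5% of the gained regions of the whole genome. At equal list length it was in 32.4% of the 284 gained and 11.7% of the 128 lost distal regions, while CTCF was in 0.704% and 9.38% of them. Among the 112 regions higher by limma, 37 (33.0%) carried C/EBP, 23 (20.5%) PU.1 and 0 CTCF, where the shared regions tested had 20.8%, 11.5% and 4.04%. Of the 18 lower regions none carried C/EBP or PU.1. These shares are descriptions of regions chosen by the same contrast.

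Distal peaks differed from other peaks in sequence in every list. C/EBP was in 19.9% of distal and 13.9% of other peaks, a difference of 5.98 ± 0.385 percentage points (SD over 6 lists). AP-1 was higher by 5.27 ± 0.792, RUNX by 3.60 ± 0.607, PU.1 by 2.48 ± 0.234 and HOX-PBX by 2.17 ± 0.252 points, whereas KLF was in 17.9% of distal and 29.5% of other peaks, a difference of -11.6 points. All of these had the same sign in 6 of 6 lists (exact sign-flip permutation test, two-sided, p = 0.031, the smallest it can give, adjusted 0.031). Against peaks 5 to 100 kb away outside coding genes the differences were smaller, at 3.41 ± 0.429 points for C/EBP and 2.03 ± 0.403 for AP-1. CTCF was in 4.46% of distal peaks, 6.65% of other peaks and 8.69% of the peaks 5 to 100 kb away. So distal peaks had the CTCF consensus least often of these classes (exact sign-flip permutation p = 0.031 for both comparisons). NF-Y differed by -0.71 points between distal and other peaks, and by 0.164 points between distal peaks and those 5 to 100 kb away, where 4 of 6 lists were positive (exact sign-flip permutation p = 0.219).

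Distal peaks were also weaker, narrower and poorer in GC. Their median GC content was 46.8% against 50.8%, their median width 241 bp against 280 bp and their median summit 11 reads against 16.2 (means over 6 lists of each list's median, exact sign-flip permutation p = 0.031 each). Of distal peaks 11.9% had a summit window of at least 50% repeat, against 7.70% of other peaks, and against 11.1% of the peaks 5 to 100 kb away, from which they did not differ beyond the spread of the lists (exact sign-flip permutation p = 0.25). GC, width and read number move with distance together with the motifs, and their part in the motif differences was not tested.

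The distal regions of highest rank held far more reads than the rest and included repeats. The first (chr14:45812780-45812943, 73.8% repeat) had 2952, 2818 and 2570 reads over the summit in control and 3650, 2989 and 3115 in MMF lists. A region on chromosome 12 (chr12:3109816-3110154, 90.3% repeat) had between 29621 and 39922 reads. The region of highest rank that was under 50% repeat was in an intron of Cntnap2 (chr6:46801936-46802118), with 2376, 2025 and 2088 reads in control and 2424, 2163 and 2245 in MMF lists. The shared distal regions had a median of 14 to 27.5 reads in a list, far below these counts. The 8 highest were 154719 bp from Ddhd1, 442360 bp from Cntnap2, 199984 bp from Rab10, 262818 bp from Mc2r, 241538 bp from Ccdc3, 2140265 bp from Cdh20, 651846 bp from Il1rapl1 and 148746 bp from Epm2a. The rank scale has little room for an increase at these ranks, so the level is given instead. Summit reads per background were lower in every MMF list than in any control list at 6 of the 8 (exact permutation p = 0.1 each). They were 1689, 1666 and 1500 in control and 1125, 1217 and 1174 in MMF lists near Il1rapl1, and 3142, 3130 and 3002 in control and 2540, 2563 and 2645 in MMF lists near Mc2r. At the regions near Ddhd1 and Cntnap2 the groups overlapped. Of the 50 shared distal regions of highest rank, 19 were at least 50% repeat, against 9.74% of all shared ones. A run of 31 bases of the mitochondrial genome was found within 150 bp of the summits of 3 distal regions, all with a peak in 6 lists, among them the region near G6pd2 (chr5:60042834-60043160) with 942 to 1550 reads. Without regions of at least 50% repeat 12006 distal regions remained. Of these, 1070 were gained (8.91%, against 6.18% of all regions under 50% repeat) and 20 lost (0.167%, against 0.170%).

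Some shared distal regions were over 2 Mb from any protein-coding start. The farthest (chr14:90911109-90911352, 51.6% repeat) was 2439835 bp from Pcdh20, a protocadherin gene, with 161, 178 and 126 reads in control and 195, 164 and 166 in MMF lists. The next (chr14:82201286-82201902), 2201292 bp from Olfm4, had 19, 16 and 10 reads in control and 44, 35 and 36 in MMF lists and passed the test (difference 1.34 ± 0.27, SE, limma adjusted p = 0.0495). The third was the region near Cdh20 named above. At the boundary of the rule, the 2 regions just inside were 100001 bp from Pon1 and 100003 bp from Armc4, with peaks in 4 lists and 1 list. The 2 just outside were each 99987 bp away, from Tln2 and Pgpep1l, with peaks in 1 list and all 6 lists.

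Distal regions were grouped into clusters. Joined at gaps of up to 25 kb they formed 5523 groups, of which 2973 were single regions and 687 had 5 or more, and the latter held 5948 regions (43.1%). Other regions were not grouped in this way, so whether distal regions gather more than others was not tested. The largest cluster (chr2:128229821-128487209) spanned 257 kb between Spdye4c and Bcl2l11, the gene of the pro-apoptotic protein BIM, with 42 regions. The control lists had a peak at 22, 23 and 24 of them and the MMF lists at 30, 33 and 24, so the groups touched. Because a sum over called regions grows with their number, levels were summed over the regions with a peak in all 6 lists only. Over the 15 such regions of this cluster the summed summit reads per background were 543, 545 and 579 in control and 789, 832 and 789 in MMF lists, a 1.45-fold difference. The cluster inside Itpr1, a calcium channel gene, beside Bhlhe40 (chr6:108371586-108558246) had 29 regions, with a peak at 18, 16 and 16 in control and 26, 25 and 20 in MMF lists. Its 14 shared regions summed to 347, 344 and 390 in control and 617, 615 and 646 in MMF lists, 1.74-fold higher. In the cluster between Uaca and Tle3, a corepressor gene, (chr9:60895529-61169319) the number of regions with a peak was 17, 14 and 13 in control and 25, 23 and 22 in MMF lists, while the level of its 10 shared regions overlapped (532 ± 18.6 and 525 ± 24.0, SD, n = 3 each, exact permutation p = 0.7). Those inside Arid1b (38 regions) and beside Klf14 and Mkln1 over the noncoding gene Lncpint (37 regions) had shared levels 1.20- and 1.25-fold higher, and the one inside Akap13 (35 regions) overlapped (exact permutation p = 0.9). So the shared level was higher in all MMF lists in 4 of the 6 clusters (exact permutation p = 0.1 each). The same sum over all 3542 shared distal regions was 1.07-fold higher and over the 3197 under 50% repeat 1.17-fold higher, again without overlap. A few regions hold much of the first sum. The chromosome 12 repeat near Rab10 alone averaged 53259 in control and 43925 in MMF lists, of sums of 212344 and 227411. The median level of shared regions went from 22.1 to 30.3 at distal and from 31.9 to 39.7 at other regions. Whether the clusters exceed this typical change was not tested.

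**Figure D5:**
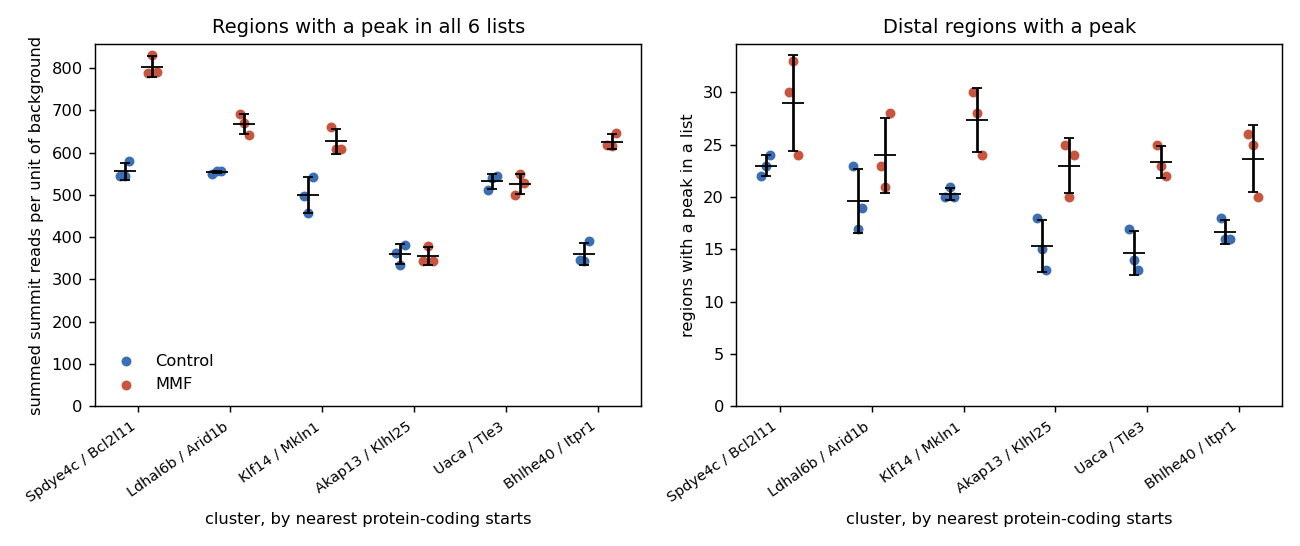
The 6 clusters with the most distal regions, named by their nearest protein-coding starts, with the summed summit reads per unit of background over the regions with a peak in all 6 lists (left) and the number of regions with a peak (right) in each list. Points are lists and black bars the mean and SD (n = 3). In the left panel the MMF points are above the control points except in the Akap13 / Klhl25 and Uaca / Tle3 clusters, where they overlap.

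By nearest gene, distal regions were most numerous near Cited2 (47), Maf (43), Jarid2 (42), and Myc and Zfp386 (39 each). Cited2 and Maf encode transcription regulators of blood cells and Jarid2 a Polycomb cofactor. Near Cited2 the control lists had a peak at 29, 30 and 22 distal regions and the MMF lists at 39, 38 and 37. Its 18 shared regions had summed levels of 510, 477 and 495 in control and 620, 724 and 659 in MMF lists. Near Maf there was a peak at 18, 24 and 18 regions in control and 36, 36 and 31 in MMF lists, and the 15 shared regions had summed levels of 409, 402 and 431 in control and 560, 632 and 544 in MMF lists. Both genes had more regions and a higher shared level in every MMF list than in any control list (exact permutation p = 0.1 each). The number of regions rose 1.41-fold near Cited2 and 1.72-fold near Maf, against 1.62-fold over all distal regions. Their shared levels were 1.35- and 1.40-fold higher. Over all shared distal regions the sum was 1.07-fold higher and the median went from 22.1 to 30.3. Whether any gene named here exceeds this typical change was not tested. Near Myc the shared level over 11 regions was 255 ± 3.20 in control and 492 ± 7.46 in MMF lists (SD, n = 3 each), and 1 of the 11 was higher by limma. Distal regions nearest Gsdmc numbered 31, all between Myc and that gene. They lay up to 1719.5 kb from the Myc start, where a blood enhancer cluster of Myc is known. Of these, 14 were shared, with summed levels of 412, 464 and 487 in control and 678, 609 and 710 in MMF lists. That shared level was 1.46-fold higher, without overlap (exact permutation p = 0.1). None of the 14 passed the limma test (median difference 0.08 score units, 5 of 14 below 0).

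Of 99 blood transcription regulators on a list, 54 were the nearest gene of a distal region. They had 676 distal regions, of which 195 (28.8%) had a peak in all lists, 57 (8.43%) were gained and 2 lost, close to the 8.38% gained of all distal regions. Of the 195 tested, 4 were higher (2.05%, against 3.16% of all distal regions tested) and 1 lower by limma, and their median difference was 0.13 against 0.16 for all distal regions. Of 48 myeloid receptors, kinases and surface proteins, 15 were nearest to 130 distal regions, with 39 shared, 11 gained (8.46%, against 8.38%), 0 lost, 1 higher (2.56%, against 3.16%) and 0 lower. Near Ahr, the aryl hydrocarbon receptor gene, a peak was found at 7, 6 and 6 of 18 regions in control and 14, 15 and 10 in MMF lists. Near Runx1 a peak was found at 11, 10 and 10 of 21 regions in control and 10, 10 and 12 in MMF lists, which overlapped. The 7 shared regions near Runx1 summed to 306, 291 and 305 in control and 316, 330 and 358 in MMF lists, a difference of 1.11-fold. Near Kit, the stem cell factor receptor gene, a peak was found at 4, 7 and 5 of 14 regions in control and 9, 9 and 8 in MMF lists. The mean number of regions with a peak was 2.05-fold higher near Ahr, 1.03-fold near Runx1 and 1.625-fold near Kit. Over all distal regions it was 1.62-fold higher, so the count near Kit moved like that of distal regions in general.

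The shared regions of both lists described here were chosen for their high rank, which leaves little room for a rise in percentile rank but not for a fall. None of the 8 passed the limma test on ranks. Their summit reads per background were lower in every MMF list at 3, higher in every one at 1 and overlapping at 4. Near Zeb2, a repressor gene of stem and myeloid cells, the region at 162226 bp (chr2:45279371-45279870) had 90, 69 and 61 reads over the summit in control and 98, 90 and 75 in MMF lists, a difference of -0.03 ± 0.29 score units (SE, limma adjusted p = 0.961). The region 429562 bp from Mef2c (chr13:83074126-83074817) had 57, 54 and 47 reads in control and 65, 46 and 50 in MMF lists. Per unit of background these were 78.2, 78.1 and 75.8 in control and 71.5, 65.2 and 73.9 in MMF lists, lower in every MMF list. The region 120616 bp from Cxcr4, a chemokine receptor gene of bone marrow homing (chr1:128712593-128713218), had 49, 54 and 43 reads in control and 94, 69 and 42 in MMF lists, with MMF 3 below every control list. The region 243584 bp from Prdm1 (chr10:44701957-44702707) had 49, 51 and 51 reads in control and 85, 75 and 65 in MMF lists, a difference of 0.49 ± 0.21 (SE, limma adjusted p = 0.21), and its summit reads per background were 67.2, 73.8 and 82.2 in control and 93.5, 106 and 96.1 in MMF lists. At 1108363 bp from Zeb2 they were 72.7, 79.5 and 72.6 in control and 57.2, 53.8 and 47.3 in MMF lists. Neither region overlapped between the groups (exact permutation p = 0.1 each). The others of the 8, near Zfpm2, near Lmo4 and at 1108363 and 1253699 bp from Zeb2, had differences of -0.31 to 0.11.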

How the data were processed

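The data are 6 peak lists, 3 from control and 3 from MMF-treated LSCs. Per the labels and the methods, the authors checked reads with FastQC, trimmed them with Trim Galore, aligned them to mm10 with Bowtie2 and called peaks with MACS2 for each sample (versions not given in the sources used here). The deposited lists give for each peak a fold enrichment ratio over the local background at the summit, −log10 p and q values, and a deposited integer score, which was not used. Reads were not used.

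Peaks on chromosomes 1 to 19 and X were merged where they overlapped (at most 0.447% of a list was left out). Each region was placed by its midpoint against GENCODE M21 basic annotation starts, and repeats are soft-masked bases of GRCm38. Summit reads and the background were solved from fold enrichment and p, and whole reads came out for 100% of peaks. Every peak had a −log10 p of at least 3.01, rounded, so weaker signal is absent from the lists. The limma fit (3.58.1, R 4.3.3) took regions found in all 6 lists, as normal scores of the percentile rank by fold enrichment. The design named ranks within a list. The reported fit takes them again among the tested regions, a departure made after the data were seen, and the fit with ranks among all peaks stands beside it. Sums over shared regions were also added after the data were seen. Other comparisons were exact permutation tests over lists (SciPy 1.17.1). The limma code was tested on simulated data.

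Named were the 8 shared regions of highest mean rank, the 5 gained and 5 lost of highest rank, the 5 largest limma differences in each direction, the 3 shared regions farthest from a start, the 6 largest clusters, the 8 top-ranked shared regions of both gene lists, and the 2 regions on each side of 100 kb. Of the limma increases, 2 are not reported here. The other gene sums by name (Cited2, Maf, Jarid2, Myc, Gsdmc, Ahr, Runx1, Kit) and the region near G6pd2 were chosen after their values were seen. The regions, gene lists, markers and motifs were chosen with earlier results of these data known. Same-numbered control and MMF lists did not deviate together (no correlation of deviations beyond 0.00736 in size), so the numbers were not taken as pairs. The alternatives were other distance limits, equal list length, a −log10 q of at least 2, 50% overlap, other annotation or repeat limits, other rank scales, a 500 bp motif window and leaving out each list.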

Additional observations from a re-analysis of the deposited data

How the results depend on the processing

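The difference in distal share was positive under all 14 alternatives (1.60 to 1.83 percentage points without one list), and the ratio of distal regions with a peak was 1.57 to 1.68 without one list. Without one list, gained distal regions numbered 1366 to 1745 (10.1% to 13.5%, against 7.50% to 9.84% of all regions) and lost ones 44 to 77. With a limit of 50 kb there were 2174 gained (7.82%, against 6.01% of all) and 49 lost (0.176%, against 0.182%). With a limit of 200 kb there were 492 gained (9.19%) and 16 lost (0.299%), against the same shares of all. At equal list length there were 284 gained and 128 lost, with the shares given above. The limma calls numbered 208 higher and 30 lower at 50 kb, and 45 and 7 at 200 kb. They numbered 358 and 7 with ranks among all peaks, as first laid out. On summit reads per background they were 1008 and 30, and on the same centred 414 and 234. With the comprehensive annotation they were 93 and 14. That annotation gave 851 gained (8.33%, against 6.01% of all regions) and 22 lost (0.215%, against 0.182%). The centred reads and the comprehensive annotation were chosen after seeing the data. Without any one list limma called 0 and 0, with a smallest adjusted p of 0.050 to 0.106, and with the replicate block also 0 and 0 (724 higher and 222 lower at an unadjusted p under 0.05, smallest limma adjusted p 0.0828). A fit on fewer samples, or with more terms, has fewer degrees of freedom.

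With a 500 bp window, MMF minus control was 0.146 points for GATA, -0.0761 for MEIS and 0.00175 for HOX-PBX. At equal list length it was 0.588 for RUNX, 0.392 for AP-1, 0.050 for ETS and 0.0627 for ETS-IRF. Without one list MEIS gave -0.00863 to 0.226. NF-Y at distal minus other peaks was 0.0663 points with 500 bp and 0.164 against peaks 5 to 100 kb away, where the median repeat content differed by -0.167 points. The cause of these changes was not tested. Of 233 alternative values 183 kept their direction and their side of the threshold or their size.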
